A study of Mus musculus with 4 samples.

Results

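The 3 RNAs described here are Rny1 and Rny3, the Y RNAs of the mouse, and Vaultrc5, its vault RNA. They were taken by gene name from both deposited tables. All 3 are among the 4973 genes of the noncoding table, and only Vaultrc5 is also among the 16470 of the mRNA table, as RefSeq transcript NR_027885. In the noncoding table they are the Ensembl transcripts ENSMUST00000083767.1 (Rny1), ENSMUST00000083011.1 (Rny3) and ENSMUST00000083211.1 (Vaultrc5). The cells were mouse embryonic stem cells of strain C57BL/6, a feeder-free, gelatin-adapted line at passages 25 to 30, kept in LIF and serum. Cells carried transfected FLAG-tagged mutant Dis3l2, or had gone through a mock transfection. Dis3l2 degrades RNA from the 3′ end and prefers RNAs with uridine tails; which mutation the protein carries is not named in the labels. Each condition gave 1 library of RiboMinus-selected input RNA and 1 library of RNA recovered on anti-FLAG M2 gel (immunoprecipitation, IP), so there are 4 libraries and 1 per group.

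Y RNAs are short, hairpin-shaped RNAs made by RNA polymerase III. They are bound by the ring-shaped protein Ro60, which is linked to quality control of misfolded noncoding RNAs, and their 3′ oligouridine end is bound by the La protein. Vault RNAs are also short RNA polymerase III products. A part of them sits in the vault, a large cytoplasmic particle built from the major vault protein Mvp with Tep1 and Parp4. The study set out to find RNAs bound by the mutant nuclease, and the mock IP measures what binds the gel when no tagged protein is present.

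The noncoding table held 2746737 (mutant) and 2738512 (mock) input reads, and 3183346 (mutant) and 2157604 (mock) IP reads. The 18S ribosomal RNA Rn18s-rs5 took 10.4% and 12.1% of these in the inputs and 37.1% and 42.4% in the IPs, so that rates based on the total depend on it. To give the deposited values, reads had been divided by 2.5 in both mock libraries, and in the mutant by 1.8 (input) and 2.7 (IP). As a check of the cell type, all 10 pluripotency markers had reads in both IPs, where they summed to 1616 RPM (reads per 1000000 reads of the same table and library) in the mutant and 1359 RPM in the mock. In the inputs 8 and 10 of them had reads, and they summed to 416 and 601 RPM. These marker rates are based on the mRNA table and depend on the gene Lars2. It took 52.0% (mutant) and 58.6% (mock) of that table's IP reads and 33.3% and 34.8% of its input reads. Fibroblast feeder markers, of which 4 of 8 named were in the table, summed to 77.8 (mutant) and 36.0 (mock) RPM in the IPs and to 52.1 and 65.3 RPM in the inputs, and their part in the results below was not tested. In bulk libraries fewer cells of a type and less RNA per cell cannot be told apart.

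Rny1 was seen in the mutant IP only. It had 57 reads there, a deposited value of 21.1, and 0 reads in both inputs and the mock IP. Its 57 reads made 17.9 RPM, with an exact 95% interval of 13.6 to 23.2 that takes in counting error alone, as PCR copies of a molecule are counted each time. At that rate the mock IP would have held 38.6 reads and the inputs 49.2 (mutant) and 49.0 (mock). Taken as 3 reads of each total, a count of 0 allows up to 1.39 RPM in the mock IP, 1.09 in the mutant input and 1.10 in the mock input. The exact intervals drawn in the plot of levels reach further, to 1.71, 1.34 and 1.35 RPM.

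Rny3, the other Y RNA, showed the same distribution at a lower count. It had 19 reads in the mutant IP, a deposited value of 7.04, and 0 in each of the other 3 libraries. The 19 reads made 5.97 RPM (3.59 to 9.32), and at that rate the mock IP would have held 12.9 reads. For both Y RNAs the mutant IP was the only library above 0.

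Vaultrc5 had reads in all libraries and was again highest in the mutant IP. In the noncoding table it had 242 reads in the mutant IP, against 10 in the mock IP and 11 (mutant) and 6 (mock) in the inputs. The mutant IP reads made 76.0 RPM (66.7 to 86.2) and the mock IP reads 4.63 (2.22 to 8.52). The inputs had 4 (2 to 7.17) and 2.19 (0.804 to 4.77) RPM. The intervals of both inputs and of the mock IP overlapped one another, and the interval of the mutant IP lay above all of them. By read number Vaultrc5 ranked 336 among the 4261 transcripts with a read in the mutant IP, and 2026, tied with others, among 3961 in the mock IP.

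**Figure D1:**
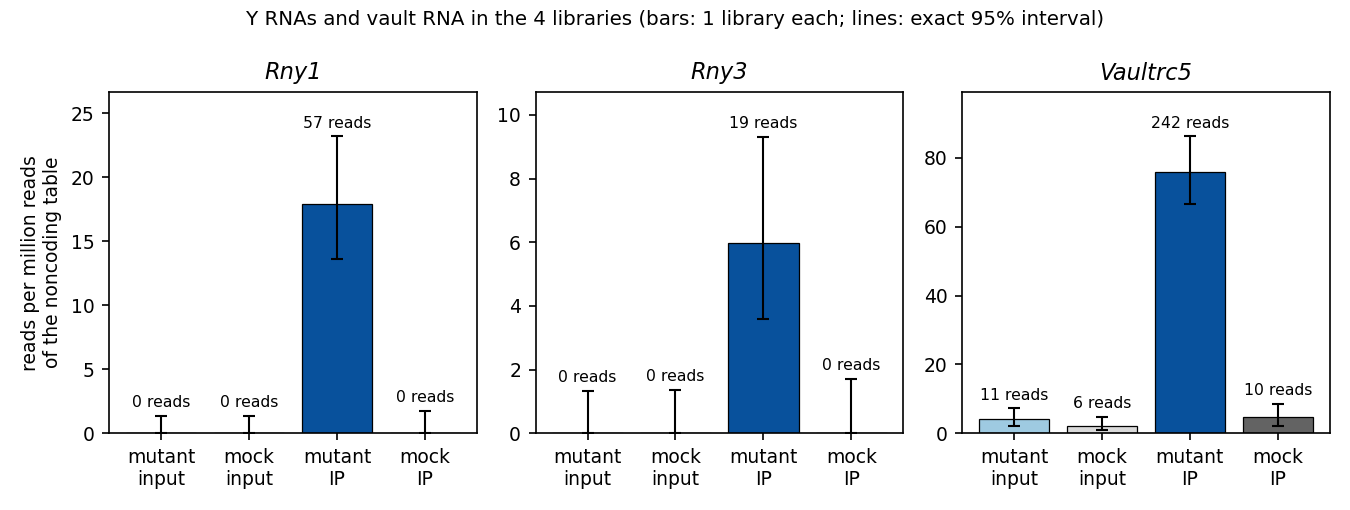
Reads per 1000000 reads of the noncoding table (y axis, starting at 0, scaled separately in each panel) in the 4 libraries (x axis) for Rny1, Rny3 and Vaultrc5. Bars are single libraries, lines are exact 95% binomial intervals for counting error, and the read number stands above each bar; the mutant IP, with 57, 19 and 242 reads, is the highest bar in each panel.

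The mRNA table gave nearly the same numbers for Vaultrc5, from the same libraries. Its RefSeq transcript had 226 (mutant) and 8 (mock) IP reads, and 11 and 6 input reads. The Ensembl transcript therefore had 16 reads more in the mutant IP, 2 more in the mock IP and 0 more in either input. The values of the tables are not independent observations.

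The comparison of the IPs asks which RNAs were recovered only with the tagged protein. All 3 RNAs were at least 4-fold higher in the mutant IP on the log2(value + 1) scale. The same held for 13.5% of the 3506 noncoding genes with a value of at least 1 in either IP. Of these genes 5.99% were at least 4-fold lower. Rny1 and Rny3, with 0 mock IP reads, met this minimum through the mutant IP alone and could only come out higher. For them the count is a description. Set against a floor of 3 reads in the mock IP, Rny1 was at least 17.6-fold and Rny3 at least 5.86-fold higher, a bound that takes the 57 and 19 reads as exact. The exact 95% intervals, which include their counting error, begin at 13.8 for Rny1 and 4.32 for Rny3. With a pseudocount of 5 the log2 ratio of Rny3 went from 3.01 to 1.27, under 4-fold, and that of Rny1 from 4.47 to 2.38. Vaultrc5 was 22.4-fold higher (95% interval 12.0 to 47.3), and 26.2-fold (13.1 to 61.3) in the mRNA table, where 10.1% of 14273 genes were at least 4-fold higher. With 1 library per condition these differences have no replicate check, and the intervals compare libraries, not conditions.

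Among all noncoding genes Rny1 ranked 21 of 3506 by this ratio, with a log2 ratio of 4.47. Vaultrc5 ranked 26 with 4.18, and Rny3 ranked 97 with 3.01. The median of all genes was 0.47. In all, 475 noncoding genes were at least 4-fold higher and 210 lower, a split that became 340 and 280 with equal library totals and 274 and 331 with libraries centred on the median. Under these scalings the 3 RNAs kept log2 ratios between 2.61 and 4.27.

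How often other genes gave such a ratio differed between classes of read number. Of 999 noncoding genes with 10 to 29 reads summed over both IPs, the class of Rny3, 25.0% were at least 4-fold higher in the mutant IP and 12.6% lower. In that class 216 genes had 0 mock IP reads and 110 had 0 mutant IP reads, and Rny3 ranked 45 by log2 ratio. Of 699 genes with 30 to 99 reads, the class of Rny1, 8.87% were higher and 2.15% lower.

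In the class of Rny1, 13 genes had 0 mock IP reads and 3 had 0 mutant IP reads. By log2 ratio Rny1 ranked 3 in its class, after Gm24208 and 4930500F10Rik with 66 and 59 mutant IP reads against 0. Of 503 genes with at least 100 and fewer than 300 reads, the class of Vaultrc5, 3.38% (17 genes) were at least 4-fold higher and 0.199% lower. In the deepest class, 419 genes with 300 or more reads, the share was again larger, with 23.2% higher and 0 genes lower. Vaultrc5 ranked 4 among the 17 of its class, after 2900060B14Rik, the U8 small nucleolar RNA Snord118 and Gm25704.

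**Figure D2:**
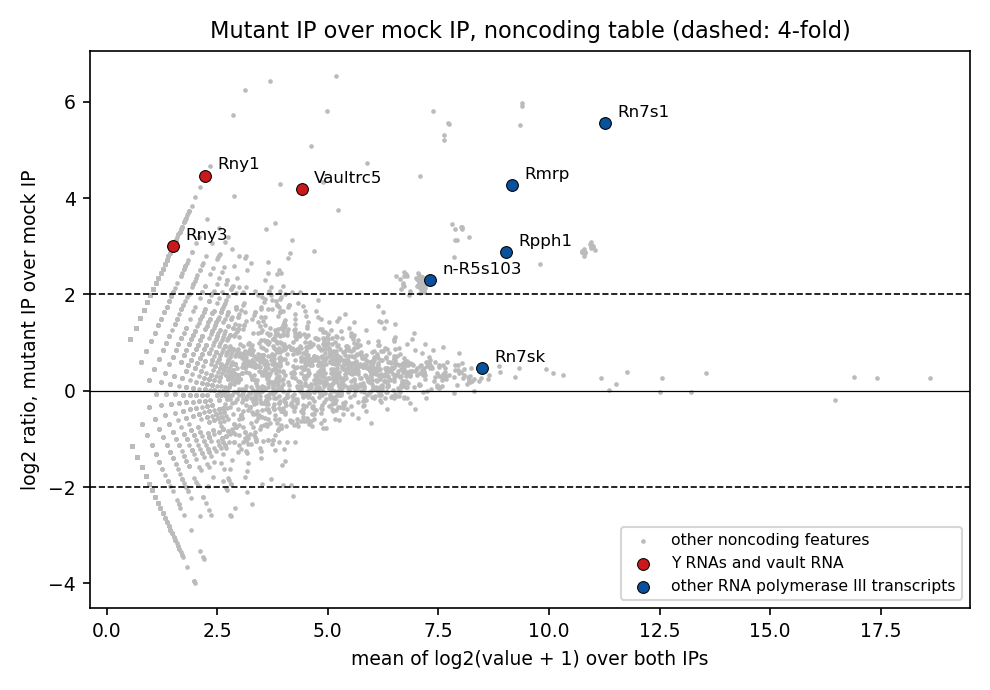
Log2 ratio of mutant IP over mock IP (y axis) against the mean log2(value + 1) of both IPs (x axis) for the 3506 noncoding genes tested, with dashed lines at 4-fold. Rny1 (4.47), Rny3 (3.01) and Vaultrc5 (4.18) are in red and 5 other RNA polymerase III transcripts in blue; Rny1 and Rny3 lie on the upper left edge, which is made of genes with 0 reads in the mock IP.

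Other genes were also seen in 1 IP alone. The read numbers used here are those of the Y RNAs themselves, so each is a member of its own count and the counts are a description. Of 949 noncoding genes with at least 57 reads in the mutant IP, 3, or 0.316%, had 0 reads in the other libraries, Rny1 included. The converse count was 0 of 764 genes in the mock IP. With at least 19 reads, 30 of 1618 genes (1.85%) were seen only in the mutant IP and 10 of 1362 (0.734%) only in the mock IP.

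Profiles over the 4 libraries were compared by the Hellinger distance between their shares, where 0 means identical shares, among 2930 noncoding genes with at least 10 reads in all. For each Y RNA 137 genes were at a distance of 0, since all had reads in the mutant IP only. Those with the most reads were 2900060B14Rik with 203 and 4930500F10Rik with 59, and Rny1 itself was the next for Rny3. For Vaultrc5 the nearest gene was C230012O17Rik, at a distance of 0.031, with 29 reads in the mutant IP and 1 in each of the other libraries. Gm16159 and Gm27284 followed at 0.120 and 0.122, with 27 and 20 reads in the mutant IP. These likenesses rest on few reads outside the mutant IP and describe these libraries.

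Each IP was next set against its own input, that is, the recovered RNA against its level in the same cells. Inputs were RiboMinus-selected and the IP RNA is not described as selected, so this ratio also compares preparations. In the mutant, Vaultrc5 was 14.7-fold higher in the IP than in the input (8.05 to 29.8). Against a floor of 3 input reads Rny1 was at least 12.7-fold and Rny3 at least 4.22-fold higher, while the exact 95% intervals begin at 9.97 and 3.11, for Rny3 below 4. On the log2(value + 1) scale all 3 passed 4-fold, as did 25.7% of the 3406 noncoding genes tested. Rny1 and Rny3 again met the minimum value through the mutant IP alone and could only come out higher. The Y RNAs had 0 reads in both the mutant input and the mock IP. Their log2 ratios over input, 4.47 and 3.01, therefore equal those between the IPs and are not a separate result. With a pseudocount of 5 Rny3 fell to 1.27, under 4-fold. Among the 3406 genes Rny1 ranked 32, Vaultrc5 146 and Rny3 328 from the highest.

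In the mock, Vaultrc5 was at 1.67 times its input, with an interval of 0.549 to 5.58 that includes no difference. Among 3138 genes tested its log2 ratio of 0.56 was below the median of 0.79. The Y RNAs had 0 reads in both mock libraries and no ratio there. In the mRNA table, the mutant IP held 13.7 times the input value of Vaultrc5 (7.51 to 27.8), where 61.1% of 13637 genes were at least 4-fold higher. That table was far shallower in the inputs, with 307324 and 291175 reads against 2275647 and 1860030 in the IPs. Lars2 took 33.3% and 34.8% of the input reads and 52.0% and 58.6% of the IP reads, so that equal totals depend on it. With equal library totals the log2 ratio of Vaultrc5 fell from 3.57 to 1.42, and with centring to 1.95, both under 4-fold. The mock ratio went from 0.30 to -1.79 and -1.45. In the noncoding table the same scalings gave 3.97 and 4.09 for the mutant and 0.81 and 0.89 for the mock.

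The inputs themselves held too little of these RNAs to compare conditions. Vaultrc5 had a ratio of 2.55 between mutant and mock input, with an interval of 0.863 to 8.39. A difference was therefore not detectable at this depth. On the log2(value + 1) scale the ratio was 1.06, and 0.72 with equal totals and 0.63 with centring. For Rny1 and Rny3 the inputs gave 0 reads each and no comparison.

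The specific enrichment divides IP over input in the mutant by IP over input in the mock. For Vaultrc5 it was 8.80 (conditional 95% interval 2.17 to 32.4) in the noncoding table and 10.3 (2.43 to 40.2) in the mRNA table. On the log2(value + 1) scale these were 3.12 and 3.27. At least 4-fold was reached by 13.3% of 3968 noncoding genes and 13.8% of 15060 genes of the mRNA table. The interval's lower end is under 4, because the ratio rests on 11, 6 and 10 reads outside the mutant IP. The Y RNAs, with 0 reads in both inputs, have no specific enrichment apart from the ratio of the IPs.

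Other RNAs made by RNA polymerase III were set beside the 3 to show how their recovery differed. Between the IPs, the interval of Vaultrc5 (12.0 to 47.3) overlapped those of Rmrp, the RNA of RNase MRP, at 19.5-fold (17.4 to 21.8), and of the 7SL RNA Rn7s1 at 47.1-fold (44.1 to 50.4). It lay above those of Rpph1, the RNA of RNase P, at 7.43 (6.75 to 8.19), of n-R5s103, the 5S ribosomal RNA copy with the most reads, at 5 (4.25 to 5.90), and of the 7SK RNA Rn7sk at 1.39 (1.27 to 1.52). The bound of Rny1, 17.6, is also above the last 3 of these ratios. For Rny3 the bound of 5.86 is below the ratio of Rpph1. Its exact interval, from 4.32 with no upper end, overlaps those of Rpph1 and n-R5s103. These comparators are of the noncoding table. In the mRNA table Rn4.5s, a 4.5S RNA, was at 2.54 (2.42 to 2.68) and Bc1 at 3.94 (1.28 to 16.1).

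Against input the order was another. In the mutant, Vaultrc5 at 14.7 (8.05 to 29.8) overlapped n-R5s103 at 14.8 (10.9 to 20.6), and both were above Rn7s1 at 1.80 (1.77 to 1.83), Rmrp at 1.82 (1.74 to 1.91) and Rpph1 at 0.613 (0.587 to 0.641). In the mock, Vaultrc5 (1.67, 0.549 to 5.58) and n-R5s103 (0.922, 0.747 to 1.14) had intervals that include 1, whereas Rn7s1 at 0.0513, Rmrp at 0.111 and Rpph1 at 0.106 were far below their input. Rn7sk was above input in both conditions, at 5.46 (4.58 to 6.57) and 6.18 (5.10 to 7.55). In the mRNA table Rn4.5s was at 29.5 (24.7 to 35.6) over the mutant input, beside 13.7 (7.51 to 27.8) for Vaultrc5. Over the mock input they were at 9.93 (8.59 to 11.5) and 1.33 (0.406 to 4.66). Bc1 had 0 mutant and 1 mock input reads. The intervals cover counting error only, and the difference between RNAs has no replicate check. U6 small nuclear RNA is also a short product of this polymerase, and its entry Rnu6 had 2 mutant and 1 mock IP reads. In both inputs Rnu6 had 0 reads. It was matched by its symbol alone, so any U6 copies under other names are not counted and the level of U6 is not known from it.

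**Figure D3:**
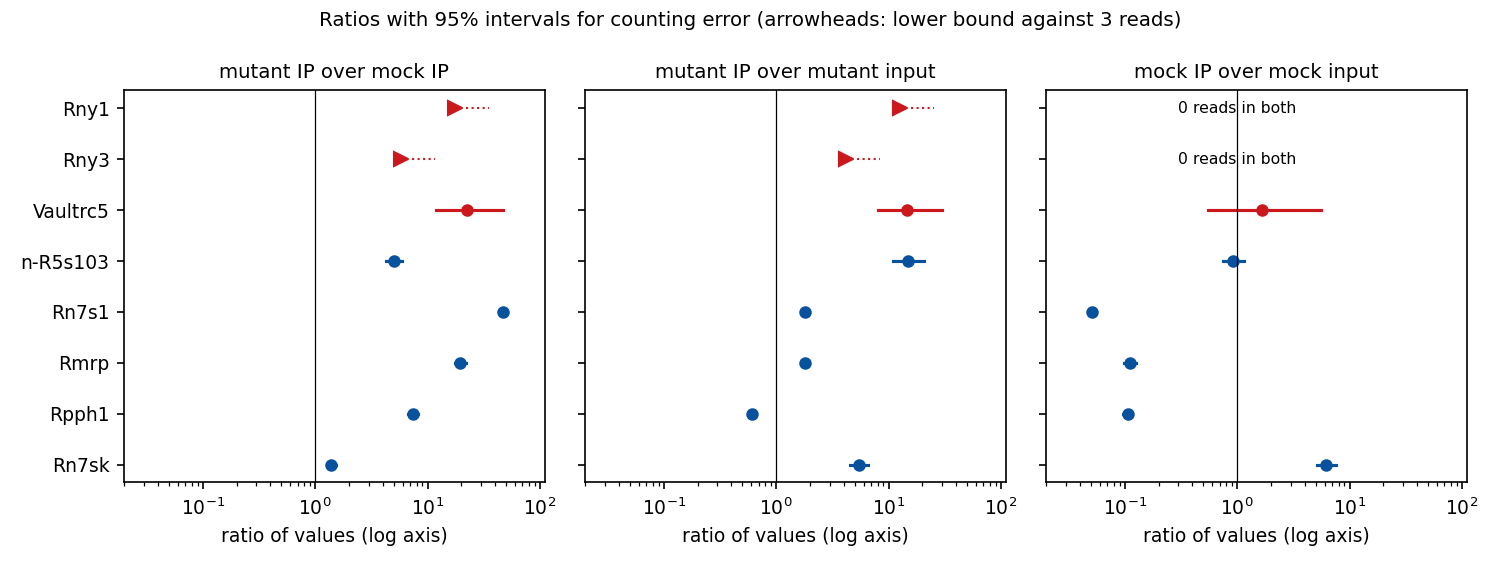
Ratios of deposited values (x axis, log scale) for Rny1, Rny3 and Vaultrc5 (red) and 5 other RNA polymerase III transcripts (blue) in 3 comparisons of single libraries. Points are ratios with 95% intervals for counting error and arrowheads are lower bounds against 3 reads; Vaultrc5 is at 22.4, 14.7 and 1.67 from left to right, and Rn7s1 at 47.1, 1.80 and 0.0513.

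On the log2(value + 1) scale the mRNAs of proteins that bind Y RNAs did not pass 4-fold between the IPs. Of 14 names listed 12 were in the mRNA table, 2 of the names being synonyms for Ro60, and 0 of 12 were higher and 0 lower by 4-fold, against 10.1% and 5.74% of all genes tested. Their median log2 ratio was 0.42 beside 0.38 for all genes, and a count of 0 among 12 genes does not set this list apart. Trove2, which encodes Ro60, had 71 (mutant) and 16 (mock) IP reads and 16 and 13 input reads. Its ratio between the IPs was 4.11 (2.36 to 7.57), and on the log2(value + 1) scale 1.88, just under the line. It was the highest ratio of the list and is named, as are Ssb and the vault proteins below, after the values were seen.

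Ssb, which encodes La, went the other way, with 36 mutant and 65 mock IP reads and a ratio of 0.513 (0.331 to 0.782). Ncl, the nucleolin gene, had the most reads of the list and a ratio of 1.17 (1.09 to 1.26). Against the inputs the specific enrichment of Trove2 was 2.40 with an interval of 0.867 to 6.55, so that a difference was not detectable at this depth.

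Genes for vault proteins and vault RNA partners were also within 4-fold. Of 6 measured, 0 passed 4-fold in either direction, and the median log2 ratio was 0.33. With 10.1% of all genes higher and 5.74% lower (median 0.38), a count of 0 among 6 genes does not set this list apart. Mvp had 67 and 38 reads in mutant and mock IP, a ratio of 1.63 (1.08 to 2.50). Parp4 had 55 and 25 reads, a ratio of 2.04 (1.25 to 3.41), and Tep1 56 and 51, a ratio of 1.02 (0.683 to 1.52). Srsf2, a splicing factor gene with the most reads of this list, had a ratio of 0.987 (0.825 to 1.18). The vault RNA at 22.4-fold (12.0 to 47.3) thus stood above the mRNAs of all 3 vault proteins, whose intervals end at 3.41 or lower.

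**Figure D4:**
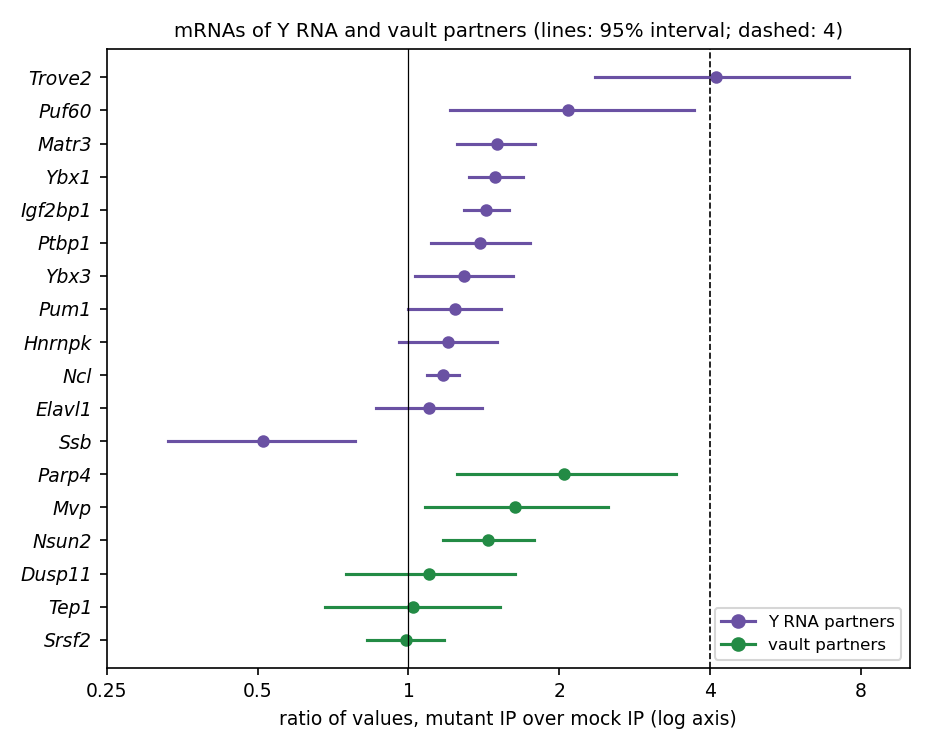
Ratio of mutant IP over mock IP (x axis, log scale) for the mRNAs of 12 genes for Y RNA partners (purple) and 6 for vault partners (green), each a single pair of libraries, with 95% intervals for counting error and a dashed line at 4. Trove2, at 4.11, has the highest ratio and Ssb, at 0.513, the lowest.

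Enzymes that trim, tail or degrade small RNAs, and the machinery that makes Y and vault RNAs, had some genes past 4-fold. Of 17 genes for end processing and decay, 2 were higher and 0 lower (median 0.21), close to the 10.1% higher and 5.74% lower of all 14273 genes tested (median 0.38). They were Dis3l2 itself, with 127 and 21 reads and a ratio of 5.60 (3.51 to 9.36), and the terminal uridylyltransferase gene Zcchc11, at 8.45 (5.03 to 15.2). Reads from the construct and from the cells' own Dis3l2 transcript cannot be told apart here. Dicer1, with the most reads of this list, had a ratio of 1.16 (0.937 to 1.44).

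Of 31 genes for RNA polymerase III and its factors, 30 were measured, with 1 higher, 0 lower and a median of 0.53, beside 10.1% higher and 5.74% lower of all genes. The 1 was Polr1d, a subunit shared with RNA polymerase I, with 48 reads against 4 and a ratio of 11.1 (4.07 to 42.4). Gtf3c1, a TFIIIC subunit with the most reads of the list, gave 0.914 (0.781 to 1.07). In the mRNA table the split of all 14273 genes, 1436 higher and 819 lower, became 972 and 1171 with centring.

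Marker genes of cell types gave a view of how single genes behaved in these IPs. Of the 10 pluripotency markers 0 passed 4-fold in either direction, beside 10.1% higher and 5.74% lower of all genes. All 10 had more IP reads than Rny3, the fewest being 70 mutant and 39 mock IP reads for Nanog. Tdgf1, with the most reads of these markers, had a ratio of 1.38 (1.26 to 1.52). Of 6 differentiation markers measured, 2 were higher and 3 lower, and Krt18, with 5 mutant and 9 mock IP reads, was neither. The higher ones, Gata4 and Pax6, had 20 and 13 mutant IP reads and 0 mock IP reads. The lower ones, Afp, Sox1 and T, had 25, 15 and 11 mock IP reads and 0 mutant IP reads. The 19 reads of Rny3 lie within the range of these numbers. Of 3 feeder markers measured, Thy1 passed 4-fold with 26 reads against 3, and Fn1, with the most reads, had 78 and 40.

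Some genes near the 3 RNAs were examined for a like pattern. In RefSeq's annotation of GRCm38, used here for neighbours only since the files use mm9, Rny3 and Rny1 lie on the same chromosome with 1 annotated gene, the pseudogene Rpl31-ps7, between them, and 0 annotated genes overlap either RNA or Vaultrc5. The coding gene next to Rny1 is Pdia4, a protein disulfide isomerase of the endoplasmic reticulum. It had 570 mutant and 465 mock IP reads, a ratio of 1.14 (1 to 1.29). The coding gene before Vaultrc5 is Zmat2, a zinc finger protein gene, with 72 and 23 reads and a ratio of 2.90 (1.79 to 4.86), below the 12.0 at which the interval of Vaultrc5 begins. Hars2, the mitochondrial histidyl-tRNA synthetase gene next to Zmat2, had 27 mutant and 1 mock IP reads, or 25.0-fold (4.12 to 1024). That ratio is like the one of Vaultrc5 but rests on 1 mock read. Ezh2, a histone methyltransferase gene farther from the Y RNAs, gave 1.62 (1.14 to 2.32). The coding genes on the other sides, Gm40363 before the Y RNAs and Pcdha1 after Vaultrc5, were not examined.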

How the data were processed

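RNA was sequenced from 4 libraries. Bowtie and mm9 are named as aligner and build in the submitters' processing notes. Not given in the sources used here: Bowtie's version, how reads were counted, whether strand was used and what was done with multiply aligned reads. Of the 2 tables deposited by the authors, 1 holds Ensembl noncoding and 1 RefSeq transcripts. The deposited unit is a signal: 100% of values were whole reads, within 0.02 reads, divided by 1 number per library. The meaning of these divisors is likewise not stated.

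For each gene the transcript with the highest mean was kept. Genes with a value of at least 1 in a library used were compared as log2(value + 1), and those at least 4-fold apart (2-fold between inputs) were counted. Ratios of 2 libraries carry exact conditional binomial 95% intervals from the recovered reads, and a library at 0 is set at 3 reads to give a bound. For the specific enrichment the conditional odds ratio interval was used (scipy 1.17.1, Python 3.11.15). With 1 library per group no count test was possible and no p-value is given. Scripts were tested on simulated data. Alternatives were a pseudocount of 5, a minimum value of 5, equal totals and centring on the median of genes with at least 20 reads in each library used.

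The RNAs and gene lists were chosen with earlier results of these data known. Besides the 3 RNAs, named genes were Dis3l2, 5 polymerase III transcripts, list members at least 4-fold apart with at least 10 IP reads and the one with the most reads, the 3 nearest profiles, and neighbouring genes added later. Rn4.5s, Bc1 and Rnu6 were added to the polymerase III transcripts. Sequences of Rny1, Rny3 and Vaultrc5 are not printed here.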

Additional observations from a re-analysis of the deposited data

How the results depend on the processing

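The 3 RNAs stayed at least 4-fold higher in the mutant IP than in the mock IP with equal totals and with centring. A minimum value of 5 only selects which genes are tested and cannot change the ratio of an RNA. A pseudocount of 5, which shrinks ratios of low values, lowered the log2 ratio to 3.39 for Vaultrc5 (3.44 in the mRNA table) and 2.38 for Rny1, and to 1.27, under 4-fold, for Rny3; the Y RNAs gave the same 2.38 and 1.27 over the mutant input. In the mRNA table Vaultrc5 over input went to 1.42 (mutant) and -1.79 (mock) with equal totals and to 1.95 and -1.45 with centring.

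Counts over all noncoding genes moved with the settings. With a pseudocount of 5, 110 genes were higher and 0 lower between the IPs, 211 and 101 were higher over input in mutant and mock, 169 between inputs and 137 in the specific enrichment; among genes of the mRNA table, 90 were higher between the IPs and 10 lower. A minimum value of 5 tests fewer genes, so its counts can only fall. Between the IPs, 321 noncoding genes were then higher and 76 lower, and 968 and 441 of the mRNA table. Over input 630 (mutant) and 485 (mock) noncoding genes were higher, with 290 between inputs and 350 in the specific enrichment. Between inputs 444 were higher with equal totals and 339 with centring, and between the IPs centring gave 274 higher and 331 lower. With equal totals, 5.72% of genes with 30 to 99 reads and 12.6% (23.2% as deposited) of those with 300 or more were at least 4-fold higher.

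No paired analysis was possible because each group has 1 library. No library was left out, since none of the groups has another. Depth limits the Y RNAs, with 19 and 57 reads in 1 library, and every ratio of Vaultrc5 that uses an input.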
